A study of Mus musculus with 14 samples.

Results

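The genes of blood coagulation and fibrinolysis that a vessel wall carries were followed through RNA-seq of the superior mesenteric artery (SMA), the artery that feeds most of the intestine. They were the 9 rows of the count table with the symbols F3, Tfpi, Thbd, Procr, Plat, Plau, Plaur, Vwf and Thbs1, of 46095 gene symbols in all. The members were taken by name from the known pathway, and no measured value entered the rule. The list was nevertheless chosen with earlier results of these data known. All 9 passed the filter on low counts. There were 14 mice on the C57BL/6 background, 8 weeks old, in 4 groups. The wild-type (WT) mice carried Drp1 +/+ and numbered 3 under normal conditions and 3 after ischemia. The mice called KO here carried the label Drp1 flox/+ and numbered 4 under normal conditions and 4 after ischemia. Dnm1l encodes Drp1, the dynamin-related GTPase that divides mitochondria.

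Several limits of the model belong to these names. The labels give a single floxed allele and no Cre driver, the design text speaks of Drp1 knockdown mice, and the methods of the paper describe a frameshift made by CRISPR/Cas9 in exon 2, with embryonic lethality of homozygotes. The KO mice were therefore read as carriers of 1 altered allele. The descriptions of the ischemic samples carry the mark 2 h. The paper names a longer period for its ischemic mice, so the duration behind every ischemia value is uncertain. The model, bleeding through a catheter in the femoral artery, is described for rats and was applied to the KO mice as well. Whether the normal mice had a sham operation is not given in the sources used here. The tissue was whole artery, so that fewer cells of a type and less RNA per cell cannot be told apart.

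Coagulation starts when tissue factor, the product of F3, meets plasma factor VII outside the endothelium, and tissue factor pathway inhibitor, made from Tfpi, blocks that step. Thrombomodulin, made from Thbd, turns thrombin into an activator of protein C, an anticoagulant of the endothelial surface. The endothelial protein C receptor, made from Procr, holds protein C at that surface. Clots are dissolved by plasmin, which the tissue-type (Plat) and urokinase-type (Plau) activators release from plasminogen. The urokinase receptor (Plaur) holds urokinase at the cell surface, Vwf encodes von Willebrand factor, which tethers platelets, and Thbs1 encodes thrombospondin-1, an adhesive protein of platelets and the vessel wall.

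Total counts per mouse ran from 25612646 to 40255851, and the 9 genes had between 27 and 8757 counts in a mouse. Levels are given as CPM, counts relative to the TMM-scaled library size, with each mouse numbered within its group. All 10 endothelial and all 10 smooth muscle markers had counts in every mouse, and the summed endothelial markers lay between 746 and 2088 CPM. Dnm1l was 63.8, 65.7 and 90.9 CPM in WT and 54.8, 60.8, 57.9 and 62.2 CPM in KO mice under normal conditions. These groups did not overlap, which was also so for 4.5% of all genes. A two-sided exact permutation test reached the smallest p that 3 against 4 mice allow, 0.0286. The log2 difference was -0.32 (SE 0.16, FDR = 0.974 in edgeR), and -0.13 without WT normal mouse 3, the mouse with 90.9 CPM. After ischemia the Dnm1l levels of KO and WT mice overlapped, with a log2 difference of -0.11. Counts over the whole gene need not fall with a frameshift, so this is a weak check of the labels. The third WT mouse under normal conditions was run in lane 1 and the other 13 in lane 8, so lane and mouse cannot be told apart.

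Of the 9 genes, Plaur rose after ischemia and the other 8 did not pass the test over both genotypes. Plaur rose 4.06 times, Thbs1 was 2.51 times higher without passing, Plau stood at 0.453 of its normal level without passing, and Plat was 1.37 times higher without passing. The 5 remaining genes had log2 fold changes between -0.27 and 0.29. A gene was called with a Benjamini-Hochberg adjusted p (FDR) under 0.05 and a fold change over 1.5 in edgeR's quasi-likelihood test. That rule called 1 member, while it called 0.927% of all 17693 genes tested in either direction and 0.616% as higher. At an unadjusted p under 0.05 there were 4 members, against 18.1% of all genes. The median log2 fold change was 0.11 over the members and -0.05 over all genes. No member separated all 7 ischemic from all 7 normal mice, which 0.848% of all genes did.

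**Figure D1:**
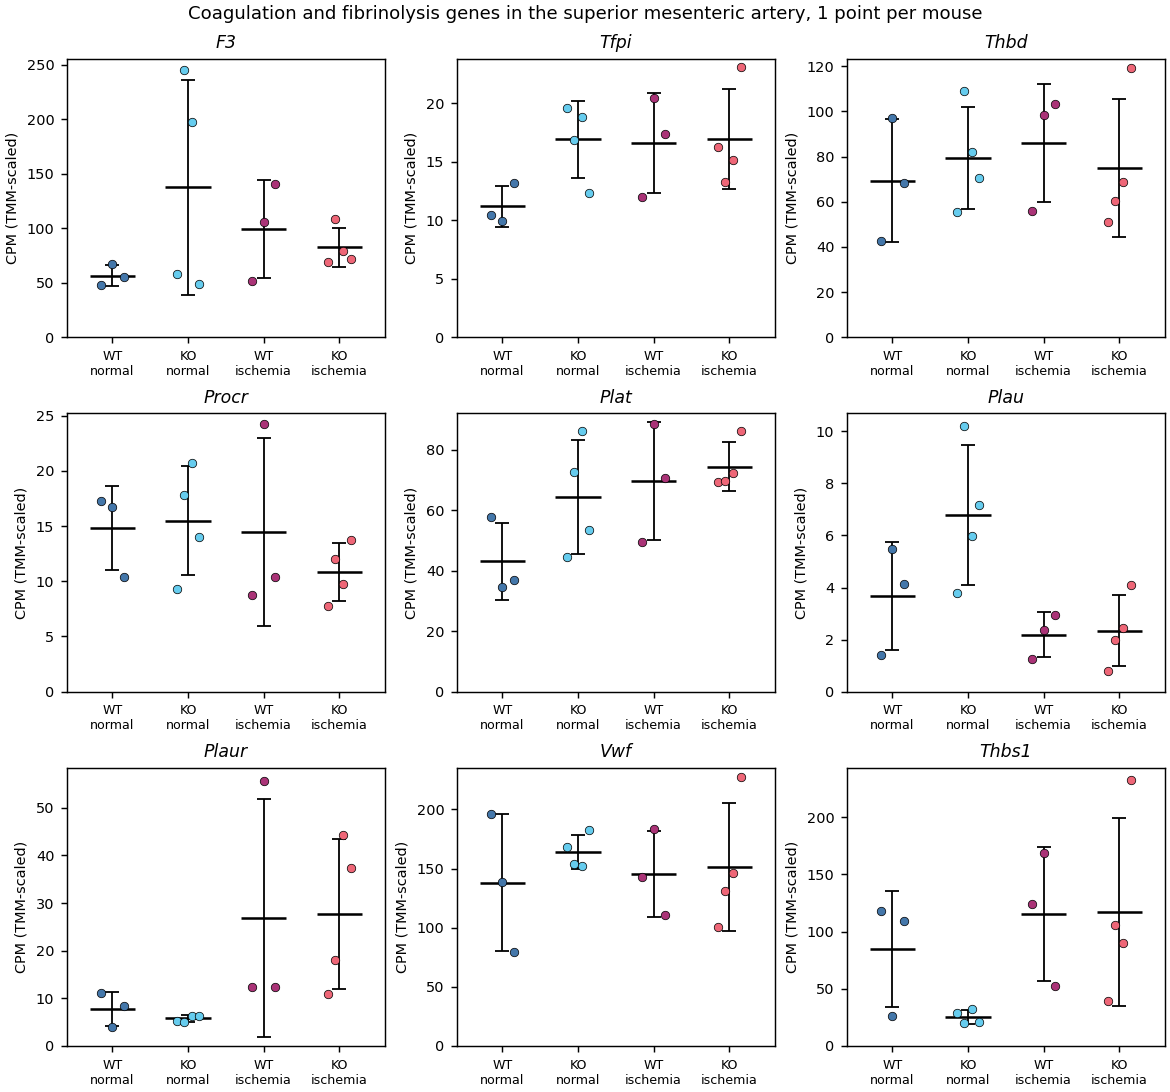
CPM (TMM-scaled, linear axes from 0) of the 9 genes in each mouse, by group. Points are mice, the horizontal line is the mean and the bar its SD; the Plaur points after ischemia sit at 10.9 to 55.7 CPM and those under normal conditions at 3.91 to 11.04 CPM.

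Plaur, the urokinase receptor, lies at chr7:24462484-24475968 on the plus strand (GRCm38, GENCODE M21) and has 6 merged exons. It was 11.04, 3.91 and 8.42 CPM in normal WT mice and 5.30, 5.05, 6.37 and 6.35 CPM in normal KO mice. After ischemia it was 12.4, 55.7 and 12.3 CPM in WT mice and 10.9, 18.0, 44.4 and 37.3 CPM in KO mice. Within each genotype every ischemic mouse stood above every normal mouse, and across genotypes 6 of 7 ischemic mice stood above the highest normal mouse, WT mouse 1. Over both genotypes the log2 fold change was 2.02 (SE 0.42, 95% interval 1.12 to 2.92, FDR = 0.0383 in edgeR). A two-sided exact permutation test within genotypes gave p = 0.00143, the smallest value that its 1400 splits allow. With a replicate block the log2 fold change was 1.91 and the FDR 0.0733 in edgeR. The call rested on nearly all mice. It held without WT normal mouse 1, WT ischemia mouse 1, WT ischemia mouse 3 or KO ischemia mouse 1 and was lost without any one of the other 10, with log2 fold changes of 1.47 to 2.20 and an FDR of at most 0.0877 in edgeR over the 14 fits. The unadjusted p of Plaur was at most 0.000982 in edgeR over the same fits. The number of all genes called moved as well. It was 60 without KO normal mouse 2, 60 without KO ischemia mouse 2, 168 without WT normal mouse 3 and 361 without WT normal mouse 1, against 164 in the main fit. Among the 13 mice of lane 8 the log2 fold change was 2.05, with an FDR of 0.0599 in edgeR.

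The mice with most Plaur differed from the rest of their group in more than this gene. WT ischemia mouse 2 and KO ischemia mouse 3, with 55.7 and 44.4 CPM of Plaur, had summed neutrophil markers of 17.6 and 19.5 CPM, while the other 12 mice had 0.177 to 5.06 CPM. KO ischemia mouse 4 had 37.3 CPM of Plaur beside 3.07 CPM of neutrophil markers. The sums over the 8 markers ran from 0.177 to 3.09 CPM in normal WT, 0.281 to 5.06 CPM in normal KO, 0.243 to 17.6 CPM in ischemic WT and 1.25 to 19.5 CPM in ischemic KO mice. Ly6g had 0 counts in all 14 mice, and none of the 8 markers had a count in every mouse. Without WT ischemia mouse 2 the log2 fold change of Plaur was 1.47 (FDR = 0.0758 in edgeR), and without KO ischemia mouse 3 it was 1.86 (FDR = 0.0741 in edgeR). Other marker lists went with Plaur to a like degree. With the group means removed, Plaur and the mean log2 CPM of the neutrophil markers had a Pearson r of 0.57 (Spearman rho 0.43). The r was 0.59 (rho 0.55) for macrophage and 0.56 (rho 0.54) for neuron and ganglion markers. Summed macrophage markers ran from 132 to 311 CPM in normal WT and 172 to 508 CPM in normal KO mice. They ran from 51.1 to 184 CPM in ischemic WT and 117 to 274 CPM in ischemic KO mice. The part of these cells in the Plaur values was not tested.

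Within each genotype Plaur was higher after ischemia without reaching the threshold. In WT mice its log2 fold change was 1.78 (SE 0.62, FDR = 0.513 in edgeR), which became 0.64 without WT ischemia mouse 2, and in KO mice 2.26 (SE 0.55, FDR = 0.106 in edgeR). The difference between the 2 changes was 0.48 on the log2 scale, with a 95% interval of -1.25 to 2.20. Both comparisons use mice that also enter the pooled one, so they are not separate evidence for it.

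The promoters of Plaur, called higher after ischemia, and of F3, not called, are printed as examples. Both carry letters of AP-1, a dimer of Fos and Jun family proteins, as does that of Procr, which was not called either. Of the 9 genes, F3, Plaur, Procr and Tfpi had an entry in the RefSeq promoter set used here (GRCm38.p6). Each run is the 250 bases before the RefSeq start, 5′ to 3′ on the plus strand, and positions count back from -1 at the base before the start. Capitals mark matches on either strand to AP-1 (TGANTCA), EGR (GCGNGGGCG) or NF-kB (GGNNTTTCC).
Plaur, chr7:24462233-24462482: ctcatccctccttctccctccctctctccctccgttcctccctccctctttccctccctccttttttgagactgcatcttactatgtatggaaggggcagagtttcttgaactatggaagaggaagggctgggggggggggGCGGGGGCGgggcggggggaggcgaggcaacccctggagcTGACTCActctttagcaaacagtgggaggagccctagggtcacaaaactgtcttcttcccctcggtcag
F3, chr3:121723287-121723536: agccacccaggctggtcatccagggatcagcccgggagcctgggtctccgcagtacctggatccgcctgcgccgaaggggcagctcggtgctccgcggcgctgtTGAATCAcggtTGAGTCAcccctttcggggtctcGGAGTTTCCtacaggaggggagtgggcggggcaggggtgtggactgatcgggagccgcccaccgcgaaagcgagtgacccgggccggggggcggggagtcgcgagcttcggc
The Plaur window held 1 AP-1 match at -69 to -63 and 1 EGR match at -109 to -101. The F3 window held 2 AP-1 matches, at -146 to -140 and -135 to -129, and 1 NF-kB match at -112 to -104. It also held 3 matches to the short KLF letters CACCC, left in lower case, of which that at -130 to -126 overlaps an AP-1 match. The Procr window had 1 AP-1 match and 1 KLF match. Of the 2 Tfpi windows, each had 1 KLF match. The one at the upstream start also matched the TATA box letters TATAAA, on the opposite strand (read as TTTATA) at -127 to -122. None of the windows held the hypoxia response core ACGTG. Among 32851 promoters, 6.75% held AP-1, 4.7% EGR, 4.93% NF-kB, 52% KLF, 12.4% TATA box and 16.6% hypoxia core letters. These matches describe the letters of the windows and no binding was measured.

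Plau, the urokinase-type activator and ligand of Plaur, lies at chr14:20836660-20843385 on the plus strand. It was the scarcest of the 9 genes, with 1.39, 5.47 and 4.15 CPM in normal WT mice and 3.78, 10.2, 5.99 and 7.18 CPM in normal KO mice. After ischemia it was 1.25, 2.38 and 2.93 CPM in WT mice and 0.802, 2.00, 2.43 and 4.10 CPM in KO mice. All 7 ischemic mice lay at 4.10 CPM or below and 5 of 7 normal mice above it, while the conditions overlapped in each genotype. Plau had a log2 fold change of -1.14 over both genotypes (SE 0.40, FDR = 0.176 in edgeR), -0.74 in WT (FDR = 0.654) and -1.54 in KO mice (SE 0.53, FDR = 0.236).

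Plau levels went with the level of brown adipocyte markers in these arteries, and also with that of other marker lists. The 4 brown adipocyte markers were detected in all mice. They summed to 150 to 6505 CPM in normal WT, 1079 to 6047 CPM in normal KO, 259 to 1322 CPM in ischemic WT and 931 to 4691 CPM in ischemic KO mice. After the group means were removed, Plau and the mean log2 CPM of these markers had a Pearson r of 0.83 (Spearman rho 0.72) over 14 mice, which share their libraries and scaling. The r of Plau was 0.71 (rho 0.60) with endothelial, 0.70 (rho 0.71) with white adipocyte and 0.67 (rho 0.57) with pancreas and gut markers. It was -0.55 (rho -0.55) with smooth muscle and -0.55 (rho -0.52) with platelet markers. With the mean of the brown adipocyte markers as a covariate the pooled log2 fold change of Plau was -0.92 (FDR = 0.0820 in edgeR). In KO mice it was -1.59 and then passed the test (FDR = 0.0439 in edgeR). With the covariate 291 of all 17693 genes were called in KO mice, against 52 without it.

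**Figure D2:**
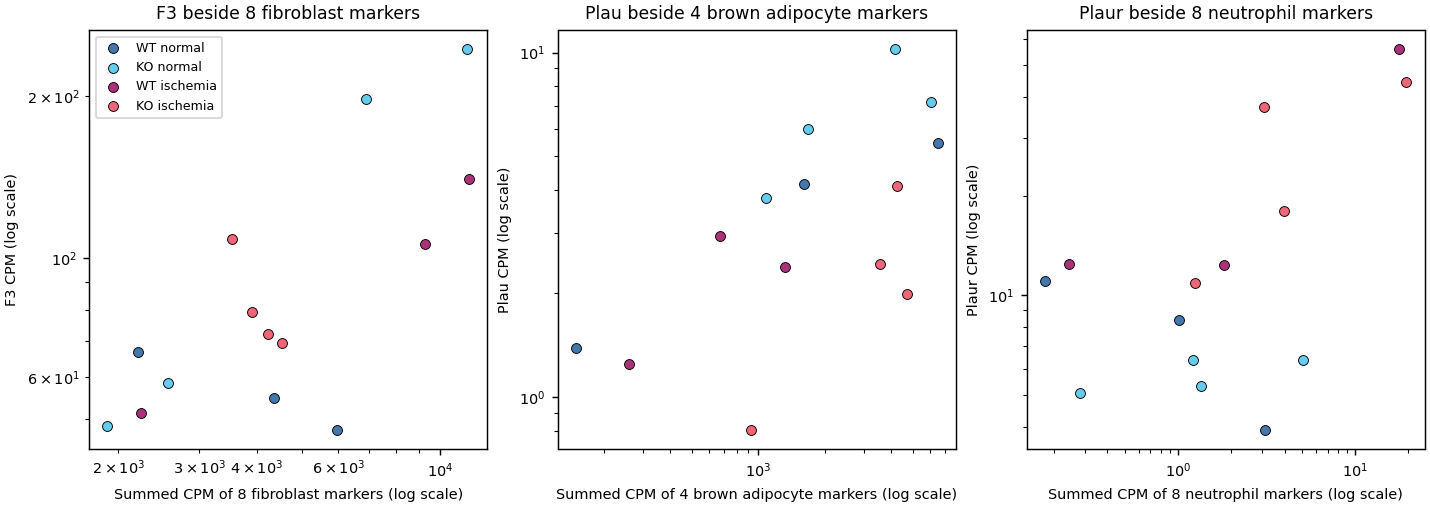
Each point is a mouse, with the summed CPM of a marker list on the x axis and the CPM of 1 gene on the y axis, both on log scales. F3 was highest in KO normal mice 2 and 3, at 245 and 198 CPM beside 11446 and 6904 CPM of fibroblast markers; the Plaur panel shows the 2 ischemic mice with 17.6 and 19.5 CPM of neutrophil markers.

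Plat, the tissue-type activator that endothelium releases, lies at chr8:22757727-22782844 on the plus strand. It was 57.7, 34.7 and 36.9 CPM in normal WT mice and 44.7, 72.8, 86.4 and 53.6 CPM in normal KO mice. The ischemic levels were 49.4, 88.5 and 70.9 CPM in WT mice and 69.2, 69.7, 72.3 and 86.4 CPM in KO mice. The ischemic KO mice lay close together, and the ranges of both conditions overlapped. Plat had a log2 fold change of 0.45 over both genotypes (SE 0.19, FDR = 0.231 in edgeR), 0.69 in WT (SE 0.28, FDR = 0.513) and 0.21 in KO mice (FDR = 0.783).

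Thbs1, thrombospondin-1, lies at chr2:118111876-118127133 on the plus strand and is overlapped on the other strand by Gm29233. Whether the counting used strand is not given in the sources used here, so reads of the pair may be mixed. It was 118, 26.3 and 109 CPM in normal WT mice and 28.8, 19.8, 32.1 and 20.7 CPM in normal KO mice. After ischemia it was 124, 168 and 52.8 CPM in WT mice and 38.9, 105, 90.3 and 232 CPM in KO mice. In KO mice the 2 conditions did not overlap, while in WT mice they did, with WT normal mouse 2 as low as the normal KO mice. The log2 fold change was 2.20 in KO mice (SE 0.55, 95% interval 1.01 to 3.40, FDR = 0.118 in edgeR), 0.45 in WT mice (SE 0.61, FDR = 0.799) and 1.33 over both (SE 0.41, FDR = 0.135). The value in WT mice ran from 0.0020, without WT normal mouse 2, to 0.79 over the fits that left out a mouse. DESeq2, an alternative test, called Thbs1 over both genotypes (FDR = 0.0259) and in KO mice (FDR = 0.00336), with log2 fold changes of 1.32 and 2.20. DESeq2 also called more of all genes, 870 of 17693 over both genotypes and 606 in KO mice, against 164 and 52 in edgeR. Thrombospondin-1 is abundant in platelets, whose 11 marker genes summed to 7.28 to 38.2 CPM in normal WT, 4.94 to 48.7 CPM in normal KO, 3.25 to 18.8 CPM in ischemic WT and 4.05 to 9.30 CPM in ischemic KO mice. KO normal mouse 1 had the highest platelet sum, 48.7 CPM, beside 28.8 CPM of Thbs1, and KO ischemia mouse 4 had the highest Thbs1, 232 CPM, beside a platelet sum of 6.35 CPM. Over 14 mice, with the group means removed, Thbs1 and the mean log2 CPM of the platelet markers had a Pearson r of 0.41 (Spearman rho 0.58), and the part of platelets in the Thbs1 values was not tested.

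Vwf, von Willebrand factor, lies at chr6:125546774-125686679 on the plus strand. It was 196, 139 and 79.8 CPM in normal WT mice and 168, 154, 152 and 183 CPM in normal KO mice. In ischemic arteries Vwf was 143, 184 and 111 CPM in WT mice and 101, 131, 146 and 228 CPM in KO mice. All 4 groups overlapped. The log2 fold change over both genotypes was -0.02, with a 95% interval of -0.49 to 0.45 (FDR = 0.975 in edgeR).

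F3, tissue factor, lies at chr3:121723537-121735048 on the plus strand. It was 47.7, 66.7 and 54.8 CPM in normal WT mice and 58.3, 245, 198 and 48.6 CPM in normal KO mice. After ischemia it was 51.4, 106 and 140 CPM in WT mice and 69.4, 109, 79.1 and 72.0 CPM in KO mice. KO normal mice 2 and 3 stood far above the other 2 of their group, and every condition and genotype overlapped. The log2 fold change after ischemia was 0.82 in WT (SE 0.53, FDR = 0.580 in edgeR), -0.74 in KO mice (SE 0.46, FDR = 0.525) and 0.04 over both (95% interval -0.72 to 0.79, FDR = 0.968). The difference between the WT and KO changes was -1.56 (SE 0.71, 95% interval -3.07 to -0.04, FDR = 0.946 in edgeR).

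In normal KO and ischemic WT mice the order of F3 was that of the fibroblast markers, and in the other groups it was not. The 8 fibroblast markers, detected in all mice, summed to 11446 and 6904 CPM in KO normal mice 2 and 3 and to 2559 and 1894 CPM in mice 1 and 4. In ischemic WT mice they summed to 2246, 9278 and 11543 CPM, in the same order as F3. In normal WT mice sums of 5959, 2207 and 4366 CPM stood beside 47.7, 66.7 and 54.8 CPM of F3. In ischemic KO mice sums of 4532, 3537, 3900 and 4230 CPM stood beside 69.4, 109, 79.1 and 72.0 CPM of F3, so that in both of these groups F3 was lower where the sum was higher. After the group means were removed, F3 and the mean log2 CPM of these markers had a Pearson r of 0.84 (Spearman rho 0.70) over 14 mice, and Plat and this mean an r of 0.80 (rho 0.84). With this mean as a covariate the F3 difference of normal KO from normal WT mice was 0.44 in place of 1.28, the change in KO mice was 0.07 in place of -0.74, and the difference between the changes was -0.31 in place of -1.56. These are log2 values, and the covariate was chosen after seeing the data.

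Tfpi, the inhibitor of the tissue factor pathway, lies at chr2:84432855-84476775 on the minus strand. It was 10.5, 9.91 and 13.2 CPM in normal WT mice and 19.6, 16.8, 18.8 and 12.3 CPM in normal KO mice. In ischemic mice it was 11.98, 20.4 and 17.3 CPM in WT mice and 16.3, 13.2, 15.2 and 23.1 CPM in KO mice. The normal WT mice were the lowest group and KO normal mouse 4 overlapped them. Over both genotypes the log2 fold change after ischemia was 0.29 (95% interval -0.09 to 0.66, FDR = 0.406 in edgeR).

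Thbd, thrombomodulin, is a gene of 1 exon at chr2:148404466-148408188 on the minus strand. It was 42.5 to 97.3 CPM in normal WT, 55.5 to 109 CPM in normal KO, 55.9 to 103 CPM in ischemic WT and 50.8 to 119 CPM in ischemic KO mice. Procr, the protein C receptor, lies at chr2:155751117-155755471 on the plus strand and had 10.4 to 17.3 CPM, 9.31 to 20.7 CPM, 8.79 to 24.3 CPM and 7.76 to 13.7 CPM in the same order of groups. All groups overlapped for both genes. The log2 fold change after ischemia was 0.11 for Thbd (95% interval -0.42 to 0.65, FDR = 0.833 in edgeR) and -0.27 for Procr (95% interval -0.84 to 0.29, FDR = 0.596 in edgeR). With the group means removed, Procr had a Pearson r of 0.77 (rho 0.74) with the mean log2 CPM of the endothelial markers over 14 mice, and Thbd had 0.71 (rho 0.64) with the endothelial and 0.75 (rho 0.68) with the brown adipocyte markers.

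The balance of initiator and inhibitor was read in each mouse as a log2 ratio of counts, with 0.5 added to each count. F3 to Tfpi had a mean log2 ratio of 2.33 ± 0.37 (SD, n = 3) in normal WT, 2.70 ± 1.10 (SD, n = 4) in normal KO, 2.50 ± 0.47 (SD, n = 3) in ischemic WT and 2.29 ± 0.58 (SD, n = 4) in ischemic KO mice. Over both genotypes it differed by -0.12 after ischemia (two-sided exact permutation test within genotypes, p = 0.727), and the ratio of F3 to Thbd differed by 0.04 (exact permutation p = 0.913). All groups overlapped for both ratios, and over their 10 tests the smallest Benjamini-Hochberg adjusted p of the permutation tests was 0.909.

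**Figure D3:**
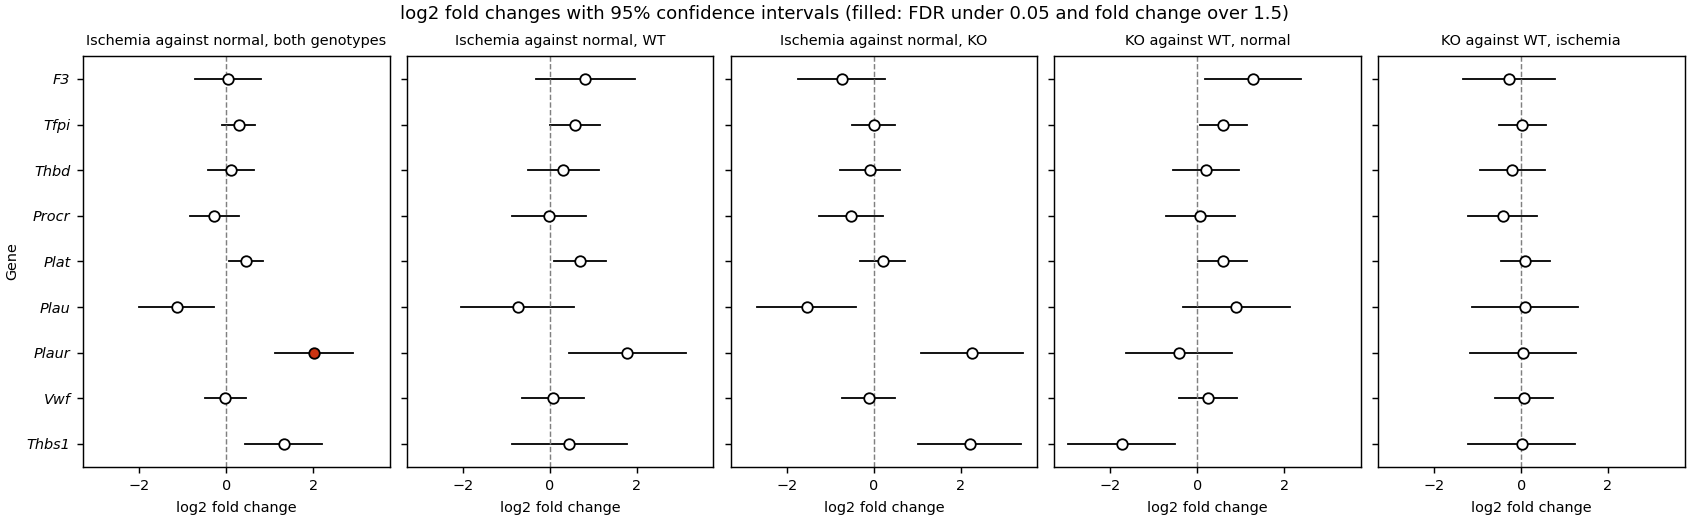
log2 fold changes of the 9 genes from edgeR in 5 comparisons. Lines are 95% confidence intervals, and a filled point marks FDR under 0.05 and a fold change over 1.5, which Plaur reached at 2.02 in the comparison over both genotypes.

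Ischemia against normal within each genotype called 0 of the 9 genes in WT and 0 in KO mice. In WT mice edgeR called 0.0113% of all genes, and 2 members (Plaur and Plat) had an unadjusted p under 0.05, against 9.57% of all genes. In KO mice it called 0.294% of all genes, and 3 members (Plaur, Thbs1 and Plau) had an unadjusted p under 0.05, against 13.2% of all genes. Groups that did not overlap were seen for 1 member in WT (Plaur), against 11% of all genes, and for 2 in KO mice (Plaur and Thbs1), against 11.1%. DESeq2 called 0 members in WT and 2 in KO mice, Plaur and Thbs1. Of all 17693 genes it called 108 in WT and 606 in KO mice. With 3 mice against 3, an exact permutation test of 1 gene cannot go below p = 0.1.

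KO against WT mice under normal conditions differed in no called member, and F3, Plat, Tfpi and Thbs1 had an unadjusted p under 0.05. The log2 difference was -1.74 for Thbs1 (SE 0.57, FDR = 0.866 in edgeR), lower in KO mice, and 1.28 for F3 (SE 0.51, FDR = 0.911), 0.60 for Tfpi (SE 0.25, FDR = 0.933) and 0.58 for Plat (SE 0.27, FDR = 0.937), higher in KO mice. Of all genes 5.25% had such a p and 0% were called by edgeR, while DESeq2 called 0 of the 9 members and 41 of all 17693 genes. None of the 9 genes separated the groups, against 4.5% of all genes. The count of 4 members was 1 with the fibroblast markers as a covariate, 2 with the brown adipocyte markers and 5 with the endothelial markers. Without WT normal mouse 3 it was 2. Over all genes 776, 2047, 1358 and 1103 had such a p in these fits, in that order, against 929 in the main fit. The count of members ranged from 1 to 4 over the fits that left out a mouse.

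After ischemia the KO and WT levels were close. The log2 differences of the 9 genes ran from -0.42 (Procr, SE 0.37, FDR = 0.771 in edgeR) to 0.10 (Plat). The intervals remained wide, -1.17 to 1.26 for Plaur, -1.21 to 1.25 for Thbs1 and -0.51 to 0.57 for Tfpi. No member was called by edgeR or DESeq2, none had an unadjusted p under 0.05 and none separated the groups, against 0%, 6.48% and 10.7% of all genes for edgeR's call, that p and that separation. DESeq2 called 18 of all 17693 genes in this comparison. In the difference of the ischemia effect between the genotypes edgeR and DESeq2 called 0 members. Of all 17693 genes edgeR called 0% and DESeq2 called 11 for this difference. F3 and Thbs1 had an unadjusted p under 0.05 there, against 4.32% of all genes. For Thbs1 the KO change exceeded the WT change by 1.76 (SE 0.82, 95% interval 0.0022 to 3.51, FDR = 0.946 in edgeR).

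Compared per kilobase of merged exon, the mean level over 14 mice was highest for F3, at 38.0 ± 23.8 CPM per kb (SD, n = 14), followed by Thbd at 20.8, Thbs1 at 13.7, Plat at 10.2, Vwf at 9.40, Procr at 6.79, Plaur at 6.48, Tfpi at 2.86 and Plau at 1.63 CPM per kb. F3 stood above Thbd in 13 of 14 mice. Thbs1, Plat and Vwf formed a stretch without a stable order, since Thbs1 stood above Plat in 7 and Plat above Vwf in 8 of 14 mice. Procr and Plaur also changed places, with Procr higher in 8 mice. Across all mice CPM varied by 14.3 times for Plaur, 12.7 times for Plau, 11.8 times for Thbs1 and 5.13 times for F3. Tfpi, Plat, Thbd, Vwf and Procr varied by 2.33 to 3.13 times.

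Other genes of the pathway were read from 6 lists. Of the 4 genes of the thrombin receptor family (F2r, F2rl1, F2rl2 and F2rl3) F2r rose after ischemia. Of 13 tested genes of platelet contact and inhibition Selp rose. The list of clotting factors also held genes of their transport and processing, among them Lman1, Mcfd2, Ggcx and Vkorc1. None of its 14 tested genes, 6 anticoagulant genes, 8 genes of the plasminogen system and 9 regulators of endothelial thromboresistance was called in either direction over both genotypes. Some lay near the floor, where a call was hardly possible. F2, F7, Fga and Fgb averaged 0.165, 0.124, 0.237 and 0.368 CPM, with counts in 6, 9, 5 and 4 of 14 mice. At an unadjusted p under 0.05 there were 2, 0, 3 and 4 genes in those lists, while 18.1% of all genes had such a p and 0.927% were called in either direction. The medians of the log2 fold change were -0.25, -0.02, 0.38 and 0.28 in the same order. They were 0.59 for the thrombin receptor family and 0.22 for the platelet list, against -0.05 over all genes.

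F2r encodes PAR1, the main thrombin receptor of the vessel wall. It was 52.1, 34.9 and 62.2 CPM in normal WT, 46.0, 46.4, 63.3 and 50.4 CPM in normal KO, 103, 82.4 and 101 CPM in ischemic WT and 78.4, 71.2, 77.0 and 69.4 CPM in ischemic KO mice. All 7 ischemic mice stood above all 7 normal mice. The log2 fold change was 0.73 (SE 0.14, FDR = 0.0265 in edgeR), and the call was lost without KO normal mouse 2 or 4, WT ischemia mouse 3 or KO ischemia mouse 1, 2 or 3, at an FDR of up to 0.0816 in edgeR. The summed smooth muscle markers ran from 7676 to 27176 CPM in normal WT, 11272 to 26306 CPM in normal KO, 21434 to 39616 CPM in ischemic WT and 20178 to 32305 CPM in ischemic KO mice, and their part in the F2r values was not tested.

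Selp encodes P-selectin, which endothelium and platelets store in granules and bring to the surface to bind leukocytes. It was 11.2, 4.54 and 4.57 CPM in normal WT, 2.71, 6.23, 7.55 and 12.2 CPM in normal KO, 26.3, 259 and 20.97 CPM in ischemic WT and 53.1, 36.9, 129 and 129 CPM in ischemic KO mice. No ischemic mouse overlapped a normal mouse, and WT ischemia mouse 2 was again the highest. Selp had a log2 fold change of 3.76 (SE 0.63, FDR = 0.0164 in edgeR). It was called in each of the 14 fits that left out a mouse, with log2 fold changes of 2.70 to 4.05.

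Apart from F2r, the 2 most abundant genes of each list gave values without a call, all from edgeR. The log2 fold changes after ischemia were -0.15 for Mcfd2 and -0.20 for Lman1, the cargo receptor pair of factors V and VIII, and 0.37 for Gas6 and 0.10 for Anxa5. They were 0.24 for Lrp1, a clearance receptor of the plasminogen activators, and 0.42 for Serpine2, protease nexin-1. They were 0.74 for the receptor gene F2rl1, 0.57 for Ptgis, the prostacyclin synthase, and -0.82 for Cd36, a thrombospondin receptor. The regulators Klf6 and Egr1 had -0.04 and 0.33.

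**Figure D4:**
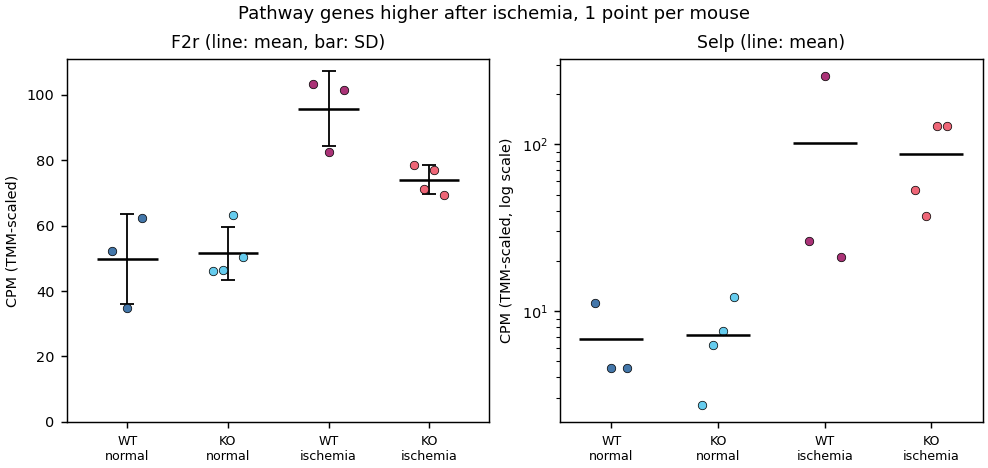
CPM (TMM-scaled) of F2r (linear axis from 0) and Selp (log axis) in each mouse, by group. Points are mice, lines are means and the F2r bars are SD; all 7 ischemic mice stand above all 7 normal mice for F2r, at 69.4 to 103 against 34.9 to 63.3 CPM, and for Selp.

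The 9 genes did not form 1 block across the mice. With the group means removed, Thbd and Plau had the highest Pearson r of any pair, 0.93 over 14 mice, Plat and Procr had 0.78 and Plaur and Thbs1 0.73. F3 and Plaur had -0.02. Among 10804 genes of at least 5 CPM the nearest by the same measure were Socs3, Nfkb1 and Zfand5 for Plaur (r = 0.89, 0.89 and 0.88) and E2f6, Rabgef1 and Dscr3 for Thbs1 (0.86, 0.84 and 0.83). For F3 they were Tmem119, Fbln7 and Cpxm1 (0.91, 0.89 and 0.89), for Plat Prcp, Flt3l and Rnase4 (0.90, 0.90 and 0.89), and for Vwf Pnrc1, Pqlc1 and Nfkbiz (0.92, 0.91 and 0.86). For Procr they were Cd93, Apold1 and Spry2 (0.93, 0.89 and 0.88), and for Tfpi Crip1, Cxx1a and Tmem35 (0.89, 0.82 and 0.81). Mmp15 stood in the first 3 of both Thbd (0.95, with Tmem182 at 0.96 and Egflam at 0.94) and Plau (0.95, with Gstm5 at 0.96 and Aldh16a1 at 0.95). All points share library and scaling with each other, and these values are descriptions.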

How the data were processed

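RNA-seq was carried out on the superior mesenteric artery of 14 mice. The authors deposited raw read counts per gene symbol as 1 table, with each mouse in its own column and without normalization; the submitters' processing notes name HISAT2 2.0.4 and the mm10 build, and the counting program, annotation and strand setting are not given in the sources used here. Each sample was 1 mouse, and no pair of mice in a group agreed within sampling noise (smallest chi-square per degree of freedom 59.1 over 18 pairs).

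Counts were filtered by filterByExpr (17693 genes) and scaled by TMM, and all 4 groups entered 1 quasi-likelihood fit in edgeR 4.0.16 (R 4.3.3) with Benjamini-Hochberg adjustment over all genes. A call needed a fold change over 1.5 at an FDR under 0.05. Single values were tested with two-sided exact permutation tests. Alternatives were DESeq2 1.42.0, other scaling and filters, the mean log2 CPM of marker lists as covariates, a replicate block and leaving out each mouse. Gene positions came from GENCODE M21 and promoters from RefSeq. The members and gene lists were chosen with earlier results of these data known. The genes named are the 9 members, Dnm1l, pathway genes called in any comparison, the 2 most abundant of each list, and the 3 nearest in pattern to each member; 1 further gene of this rule, and the ratios that use it, are not reported here. In simulated counts for the comparison over both genotypes (17157 genes), 84.2% of genes changed 8 times, 67.2% changed 4 times and 30.4% changed 2 times were called. Total counts per mouse had a median of 33506452, and the common biological coefficient of variation of 0.522 limited precision more than counting did.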

Additional observations from a re-analysis of the deposited data

Results flagged for a closer look

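For 2 genes the effect of ischemia differed between the genotypes at an unadjusted p under 0.05 of the interaction term in edgeR. F3 changed by -1.56 more on the log2 scale in KO than in WT mice (FDR = 0.946 in edgeR), and it was lower in ischemic than in normal KO mice on average while the WT means ran the other way. Thbs1 changed by 1.76 more in KO than in WT mice (FDR = 0.946 in edgeR). Neither difference passes the correction over all genes. F3 kept an unadjusted p under 0.05 in 4 and Thbs1 in 3 of the 14 fits that left out a mouse, with ranges of -1.87 to -1.12 and of 1.18 to 2.24. In 18 sets of 4 to 10 mice that were checked, 0 had a mouse apart from the rest of its set. Each WT group has 3 mice, below that size, so the check could not cover a WT group on its own. Plaur in ischemic WT mice, at 12.4, 55.7 and 12.3 CPM, was therefore not checked within its group.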

How the results depend on the processing

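The count of called members over both genotypes was 1 and became 2 with DESeq2 (Plaur and Thbs1), and 0 with a replicate block or without both WT normal mouse 2 and mouse 3. Leaving out a mouse gave 0 to 1. Of all 17693 genes the main fit called 164, DESeq2 870 and the replicate block fit 156. In KO mice the count of called members was 0 and became 2 with DESeq2. It was 1 with only the groups compared (Plaur, FDR = 0.0275) and 1 with the brown adipocyte covariate (Plau). Over all genes the main fit called 52 in KO mice and DESeq2 606. The fit of only the groups compared called 267 of 15947 genes and the brown adipocyte fit 291. Without a mouse the count of called members was 0 to 1 (Thbs1 without WT normal mouse 2, Plaur without WT ischemia mouse 2). Those fits called 174 of 18554 and 86 of 18505 genes in KO mice. In the other 4 comparisons the count of called members stayed at 0 under all alternatives run. Few of all genes were called there either. Of 17693 genes the main fit called 2 in WT mice, and DESeq2 called 108. For KO against WT under normal conditions, the same after ischemia and the difference between the genotypes, the main fit called 0 in each and DESeq2 called 41, 18 and 11. Without WT normal mouse 2, KO against WT under normal conditions called 29 of 18554 genes. The labels name no litter, batch or day shared by mice of the same replicate number. Of 19 such pairs of mice 13 had a correlation of deviations over 0.1 (range -0.39 to 0.62), among them all 6 pairs of number 1 and all 3 pairs of WT normal with WT ischemia mice, so a pairing of part of the mice was neither shown nor set aside. With the replicate block Plaur had a log2 fold change of 1.91 and an FDR of 0.0733 in edgeR.

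Some values near 0 changed sign. Without a mouse, the change over both genotypes ran from -0.046 to 0.28 for Thbd, -0.13 to 0.26 for F3, -0.15 to 0.16 for Vwf and -0.16 to 0.15 for Klf6, and the KO to WT difference of Procr after ischemia from -0.68 to 0.22. The log2 ratios ran from -0.31 to 0.070 (F3 to Tfpi) and -0.13 to 0.19 (F3 to Thbd). Without both WT normal mouse 2 and mouse 3, an alternative added after seeing the data as were the fibroblast fits, the change was 0.70 for Plau in WT mice, and over both genotypes 0.088 for Mcfd2, 0.027 for Lman1 and 0.23 for Cd36; Selp (FDR = 0.113) and F2r (FDR = 0.0516) then missed the threshold. With the fibroblast covariate F3 in KO mice was 0.072. The causes were not tested.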
